A study of Mus musculus with 3 samples.

Results

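The transcripts of 9 genes that set or oppose macrophage identity were followed through apoptotic bodies (ABs) of the osteoclast lineage. The genes were Csf1r, Spi1, Cebpa, Cebpb, Irf8, Bcl6, Prdm1, Id2 and Mef2c. They were chosen by gene symbol, and every listed mRNA transcript that GENCODE M21 assigns to them was taken. All 9 had rows, with 38 of the 56651 listed transcripts and 9 of the 15844 genes. No member was absent from the table.

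ABs are the membrane-bound fragments that dying cells release. RNA was sequenced from ABs of bone marrow macrophages (BMM-ABs), of preosteoclasts (pOC-ABs) and of mature osteoclasts (mOC-ABs), 1 library per stage, with cells from C57BL/6 mice aged 11 weeks. Whether animals were pooled is not given in the sources used here. Per the labels, marrow cells received M-CSF at 50 ng/mL for 72 h to give BMMs, and M-CSF at 30 ng/mL with RANKL at 100 ng/mL gave pOCs after 24 h and mOCs after 72 h or more. All cells then received alendronate at 500 μM for 12 h, whereas the methods of the paper name staurosporine and a longer time for mOCs. Those methods also give a shorter M-CSF time for BMMs and a higher M-CSF dose beside RANKL. The sample titles name cells, but the design text names ABs, and ABs are what the libraries are called here. The comparisons were pOC-ABs over BMM-ABs (G1), mOC-ABs over BMM-ABs (G2) and mOC-ABs over pOC-ABs (G3), and any pair of them shares a library. With 1 library per condition no spread between samples exists and no test between conditions was made. All intervals are 95% intervals from the reads, exact except for those of summed FPKM, and cover counting error only.

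In the macrophage lineage, PU.1 (encoded by Spi1) opens the enhancers that C/EBP factors and IRF8 then use, and the receptor CSF1R passes on the survival signal of M-CSF. Osteoclasts arise from the same precursors, so that PU.1 and CSF1R serve both fates. IRF8 and BCL6 are known to repress osteoclast genes and ID2 to restrain osteoclast formation, while BLIMP-1 (encoded by Prdm1) silences such repressors during RANKL stimulation.

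The mRNA table held 9100082 reads for BMM-ABs, 7387317 for pOC-ABs and 7705592 for mOC-ABs, and 3 values in a row below keep this order. A level in RPM is the summed reads of a gene per 1000000 reads of this table. Of the macrophage markers, Lyz2 had 28844, 9854 and 3170 reads, Cd68 6638, 4794 and 5056, and Mertk 0, 2 and 5. Of 10 osteoclast markers, whose sum was 345, 581 and 1870 RPM, Nfatc1 alone gave 282, 375 and 1098 RPM. Acp5 had 88, 292 and 2157 reads and Ctsk 180, 171 and 1001, Calcr had no row and Itgb3 had 6, 3 and 0. Markers of B cells summed to 7, 1 and 6 reads and those of T and NK cells to 3, 4 and 0, and none of 8 neutrophil markers had a row. In bulk RNA, fewer bodies from a kind of cell and less RNA per body cannot be told apart.

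The promoters of the genes on opposite sides of the circuit are shown first, with the 250 bases before the annotated start as RefSeq gives them on GRCm38.p6. Of the members, 7 had a promoter entry that was used, Spi1 had none and Csf1r had none that was used. For Irf8 and Bcl6 the first of 2 entries is shown. Irf8 and Bcl6 encode repressors and Prdm1 encodes the factor that opposes them. Capitals mark matches on either strand to GAGGAA (the core bound by PU.1), TTGCNNCAA (C/EBP), GNGAAAG (BLIMP-1 core), TTCNNNGAA (a spacing used by STAT factors and BCL6) or a palindromic MEF2 motif.
Irf8, chr8:120736108-120736357, plus strand: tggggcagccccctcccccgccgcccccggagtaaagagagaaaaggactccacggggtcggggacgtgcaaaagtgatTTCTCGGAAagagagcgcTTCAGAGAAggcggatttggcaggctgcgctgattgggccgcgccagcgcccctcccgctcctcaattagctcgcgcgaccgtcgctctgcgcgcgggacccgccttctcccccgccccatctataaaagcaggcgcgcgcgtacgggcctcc
Bcl6, chr16:23988853-23989102, minus strand: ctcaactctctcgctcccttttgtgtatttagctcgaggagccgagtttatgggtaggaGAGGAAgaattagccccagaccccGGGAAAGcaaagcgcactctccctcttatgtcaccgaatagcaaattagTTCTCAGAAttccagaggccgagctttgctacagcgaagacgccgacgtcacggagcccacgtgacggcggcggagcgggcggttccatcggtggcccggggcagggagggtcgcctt
Prdm1, chr10:44458749-44458998, minus strand: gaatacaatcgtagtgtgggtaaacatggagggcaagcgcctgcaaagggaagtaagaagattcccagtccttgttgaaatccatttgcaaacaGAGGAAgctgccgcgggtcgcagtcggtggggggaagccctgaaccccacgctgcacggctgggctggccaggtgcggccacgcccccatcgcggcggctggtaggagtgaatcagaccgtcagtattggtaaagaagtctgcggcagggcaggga

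The Irf8 window held 2 matches to TTCNNNGAA, starting 171 and 153 bases before the start. The Bcl6 window held 1 match to the PU.1 core, 1 to the BLIMP-1 core and 1 to the STAT and BCL6 spacing, 191, 167 and 118 bases before the start. The Prdm1 window held 1 match to the PU.1 core at 156 bases. Among 32851 promoter windows of the same length, 7.02% held the STAT and BCL6 spacing, 23.3% the PU.1 core, 19.4% the BLIMP-1 core, 1.74% the C/EBP letters and 3.20% the MEF2 motif. None of the 3 windows held the C/EBP letters or the MEF2 motif. Of the entries not shown, the second of Bcl6 held 3 matches to TTCNNNGAA and the second of Irf8 held 0. The motifs are matches of letters only.

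The receptor gene had the most reads of the members in every library. Csf1r (ENSMUSG00000024621.16, GRCm38 chromosome 18, 61100598 to 61132149) had 9870, 2640 and 3902 reads. Its levels were 1085 (1063 to 1106), 357 (344 to 371) and 506 RPM (491 to 523). The level was highest in BMM-ABs, lowest in pOC-ABs and intermediate in mOC-ABs, with no overlap of the counting intervals. Its log2 ratio was -1.60 in G1 (-1.66 to -1.54), a level 3.03-fold lower in pOC-ABs. The G2 value was -1.10 (-1.15 to -1.05) and the G3 value 0.50 (0.43 to 0.57). The sum of the 7 macrophage markers other than Csf1r was 4713, 2419 and 1293 RPM, which was lower in mOC-ABs than in pOC-ABs while Csf1r was higher, and its part in the Csf1r and Irf8 values was not tested. Among the 160 genes with at least as many reads as Csf1r, itself included, 0 had a lower ratio in G1 and 1 had a lower ratio in G2.

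The 2 listed transcripts of Csf1r did not keep the same shares. Csf1r-202 (ENSMUST00000115268) had 8966, 2412 and 3879 reads, and Csf1r-201 (ENSMUST00000025523) had 904, 228 and 23. The 2 transcripts differ at both ends, as Csf1r-201 starts farther upstream and also ends farther upstream than Csf1r-202. Csf1r-201 thus held 9.16% (8.60 to 9.75), 8.64% (7.59 to 9.77) and 0.589% (0.374 to 0.883) of the gene's reads. The share in mOC-ABs lay below the intervals of both other libraries. Both transcripts are annotated as protein-coding, and since they overlap, the division of reads between them is an estimate.

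**Figure D1:**
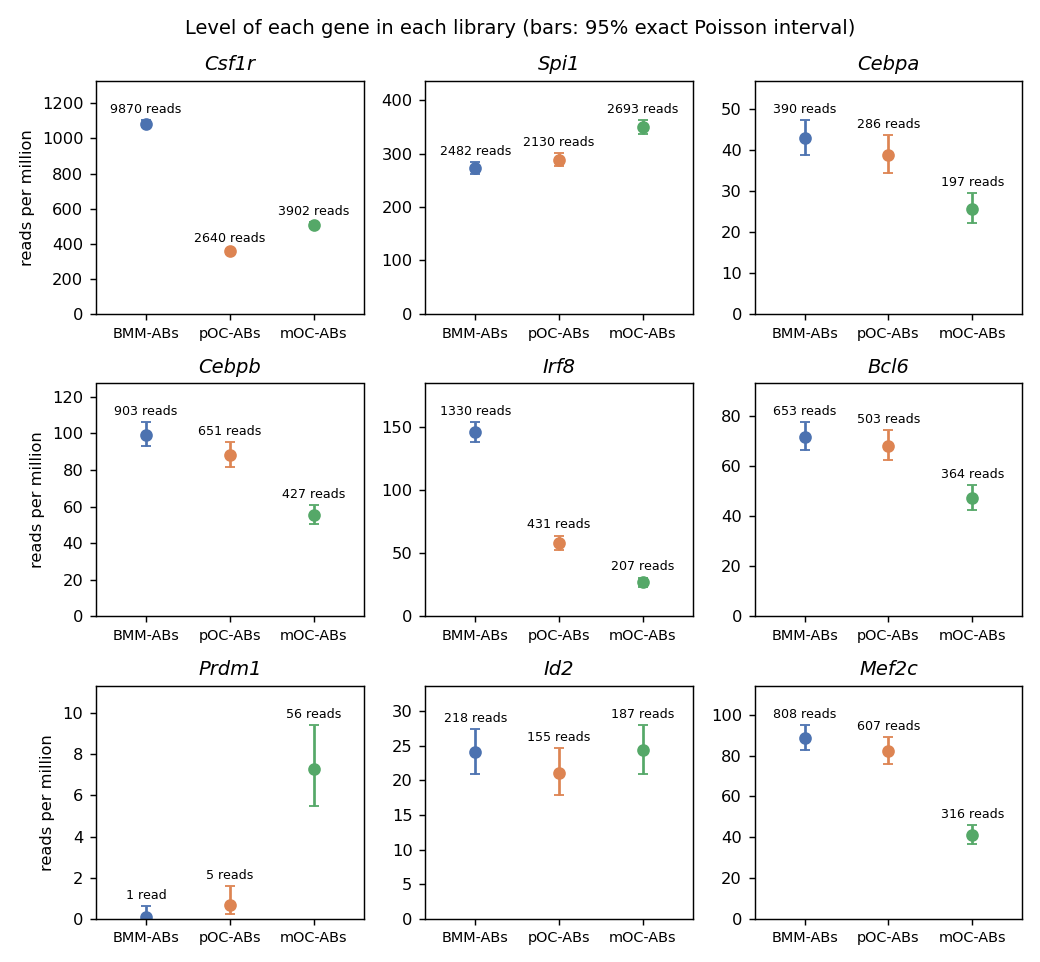
Level in RPM of each of the 9 genes (vertical axes, linear from 0 and scaled per gene) in the 3 libraries (horizontal axes), with 1 library per point and bars for the 95% exact Poisson interval. Csf1r is lowest in pOC-ABs, Irf8 steps down from 146 to 58.3 to 26.9, Spi1 stays between 273 and 349, and Prdm1 has 56 of its 62 reads in mOC-ABs.

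The lineage factors did not share a direction. Spi1 (ENSMUSG00000002111.8, chromosome 2, 91082390 to 91115756) had 2482, 2130 and 2693 reads, or 273 (262 to 284), 288 (276 to 301) and 349 RPM (336 to 363). It was highest in mOC-ABs. The log2 ratio was 0.080 in G1 (-0.0040 to 0.16), where the sign turned to -0.12 when the totals of the mRNA and lncRNA tables together were used for scaling. The values of 0.36 in G2 (0.28 to 0.44) and 0.28 in G3 (0.19 to 0.36) were also within 2-fold. Spi1-201 (ENSMUST00000002180) held 96.0%, 96.1% and 95.6% of its reads.

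Cebpa and Cebpb encode basic leucine zipper factors, C/EBPα being tied to myeloid commitment and C/EBPβ to the activated macrophage. Cebpa (ENSMUSG00000034957.10, chromosome 7, 35119293 to 35121928) had 390, 286 and 197 reads, or 42.9 (38.7 to 47.3), 38.7 (34.4 to 43.5) and 25.6 (22.1 to 29.4) RPM. Cebpb (ENSMUSG00000056501.3, chromosome 2, 167688915 to 167690418) had 903, 651 and 427 reads, or 99.2 (92.9 to 106), 88.1 (81.5 to 95.2) and 55.4 (50.3 to 60.9) RPM. For each gene the intervals of BMM-ABs and pOC-ABs overlapped, and that of mOC-ABs lay below both. The log2 ratio in G2 was -0.75 (-1.00 to -0.49) for Cebpa and -0.84 (-1.01 to -0.67) for Cebpb, neither of them past 2-fold. In G1 the values were -0.15 (-0.37 to 0.077) and -0.17 (-0.32 to -0.024), and in G3 they were -0.60 (-0.87 to -0.33) and -0.67 (-0.85 to -0.49). Each gene had 1 listed transcript, so no division among isoforms bears on these values.

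Mef2c encodes a MADS-box factor that is also used in B cells, muscle and neurons. The gene (ENSMUSG00000005583.16, chromosome 13, 83504034 to 83667080) had 808, 607 and 316 reads, or 88.8 (82.8 to 95.1), 82.2 (75.8 to 89.0) and 41.0 (36.6 to 45.8) RPM. The RPM intervals of BMM-ABs and pOC-ABs overlapped, and mOC-ABs lay 2.17-fold below BMM-ABs. Its G1, G2 and G3 log2 ratios were -0.11 (-0.27 to 0.042), -1.11 (-1.31 to -0.93) and -1.00 (-1.20 to -0.80). The G3 ratio of 0.499 lay at the 2-fold limit. With protein-coding transcripts alone the G1 value was 0.034 and the G2 value -0.91. By summed FPKM, which weights short transcripts more, the G1 value was -0.84 and the G3 value -0.54, and the FPKM intervals of BMM-ABs (50.1 to 57.5) and pOC-ABs (27.7 to 32.5) did not overlap.

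**Figure D2:**
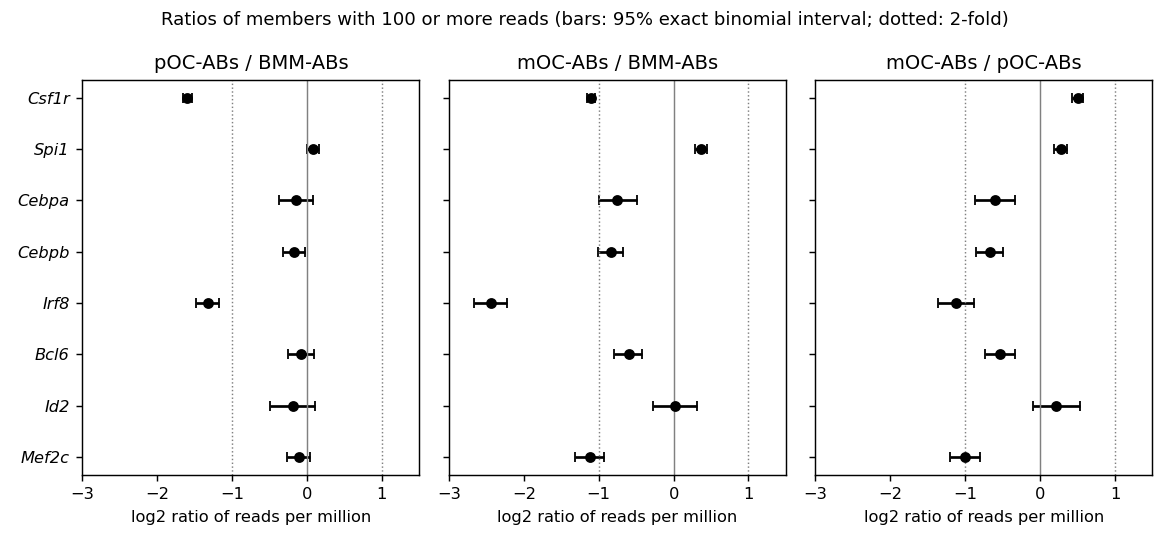
Log2 ratios of RPM (horizontal axes) for the 8 members with 100 or more reads (vertical axis) in G1, G2 and G3, from 1 library per condition, with bars for the 95% exact binomial interval and dotted lines at 2-fold. Csf1r and Irf8 lie past 2-fold in G1 and G2, and Irf8 lies lowest in G2 at -2.44.

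The repressor IRF8 showed the widest range of the members with 100 or more reads. Irf8 (ENSMUSG00000041515.10, chromosome 8, 120736358 to 120756694) had 1330, 431 and 207 reads, or 146 (138 to 154), 58.3 (53.0 to 64.1) and 26.9 (23.3 to 30.8) RPM. Each library lay below the one before, with no overlap of intervals. For G1, G2 and G3 the log2 ratios were -1.32 (-1.48 to -1.17), -2.44 (-2.66 to -2.23) and -1.12 (-1.37 to -0.88). The level was 5.44-fold lower in mOC-ABs than in BMM-ABs. The G3 value lay at the limit, at -1.00 with protein-coding transcripts alone. Of the 2976 genes with at least as many reads, 9 had a lower ratio in G2. Irf8-201 (ENSMUST00000047737), the leading transcript, had 1227, 373 and 202 reads, or 92.3%, 86.5% and 97.6% of the gene. Dendritic cells also express Irf8, and their markers summed to 23, 22 and 29 reads, of which Zbtb46 had 21, 16 and 29, while Flt3 and Cd209a had no rows. Their part in the Irf8 values was not tested.

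Bcl6 and Id2, the other repressors, differed less. Bcl6 (ENSMUSG00000022508.5, chromosome 16, 23965052 to 23988852), a zinc-finger repressor, had 653, 503 and 364 reads, or 71.8 (66.4 to 77.5), 68.1 (62.3 to 74.3) and 47.2 (42.5 to 52.3) RPM. The log2 ratios of Bcl6 for G1, G2 and G3 were -0.076 (-0.25 to 0.094), -0.60 (-0.79 to -0.42) and -0.53 (-0.73 to -0.33). Bcl6-201 (ENSMUST00000023151) held 93.1%, 97.8% and 96.4% of its reads. Id2 (ENSMUSG00000020644.9, chromosome 12, 25093799 to 25097140), which binds E proteins and keeps them from DNA, had 218, 155 and 187 reads, or 24.0 RPM (20.9 to 27.4) in BMM-ABs, an interval of 17.8 to 24.6 in pOC-ABs and 24.3 (20.9 to 28.0) in mOC-ABs. The 3 intervals of Id2 overlapped. For Id2 the G1, G2 and G3 log2 ratios were -0.19 (-0.50 to 0.11), 0.019 (-0.27 to 0.31) and 0.21 (-0.10 to 0.53), and the G2 sign turned with the scaling to the totals of both tables, to -0.081. A difference in Id2 within these intervals was not detectable at this depth.

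Prdm1, which encodes BLIMP-1, was close to the limit of detection until the last stage. The gene (ENSMUSG00000038151.13, chromosome 10, 44437177 to 44528501) had 1, 5 and 56 reads, or 0.110 (0.00278 to 0.612), 0.677 (0.220 to 1.58) and 7.27 (5.49 to 9.44) RPM. The value in mOC-ABs lay above both others, whose intervals overlapped. In G2 the log2 ratio was 6.05 with a wide interval of 3.51 to 11.38, because a single read stood in BMM-ABs, and in G3 it was 3.42 (2.12 to 5.10). In G1 it was 2.62 (-0.54 to 8.19), which rests on 6 reads in all. In mOC-ABs the reads fell on Prdm1-204 (28), Prdm1-201 (25) and Prdm1-202 (3). Plasma cells also express Prdm1, and of their other markers Jchain had 0, 3 and 2 reads, Tnfrsf17 12, 2 and 1, Sdc1 78, 86 and 81, and Mzb1 none. The sum of these markers was 9.89, 12.3 and 10.9 RPM, and its part in the Prdm1 values was not tested.

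A ratio past 2-fold was counted for the members beside all genes, Csf1r, Irf8, Mef2c and Prdm1 being those past it in any comparison. Prdm1 met the limit of 20 reads only through mOC-ABs, where it was high, and its count supports nothing. In G1, 1 of 9 members was higher (Prdm1, with 1 and 5 reads and an interval that held 0) and 2 were lower (Csf1r and Irf8), beside 10.9% of the 12702 genes with at least 20 reads past 2-fold in either direction, 4.87% higher and 6.07% lower. Of the genes past 2-fold in G1, 44.5% were higher, and 27.0% with scaling to both tables, which moved the median log2 ratio of all genes from -0.021 to -0.22. In G2, 1 was higher (Prdm1) and 3 were lower (Csf1r, Irf8 and Mef2c), beside 13.1% of all genes, 4.16% higher and 8.99% lower. In G3, 1 was higher (Prdm1) and 2 were lower (Irf8 and Mef2c), beside 10.3% of all genes, 3.50% higher and 6.83% lower. The members had median log2 ratios of -0.15, -0.75 and -0.53 over the 3 comparisons, beside -0.021, -0.054 and -0.049 over all genes. Intervals that left out a ratio of 1 were found for 3 members in G1, 8 in G2 and 8 in G3, but also for 56.4%, 55.5% and 49.1% of all genes.

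**Figure D3:**
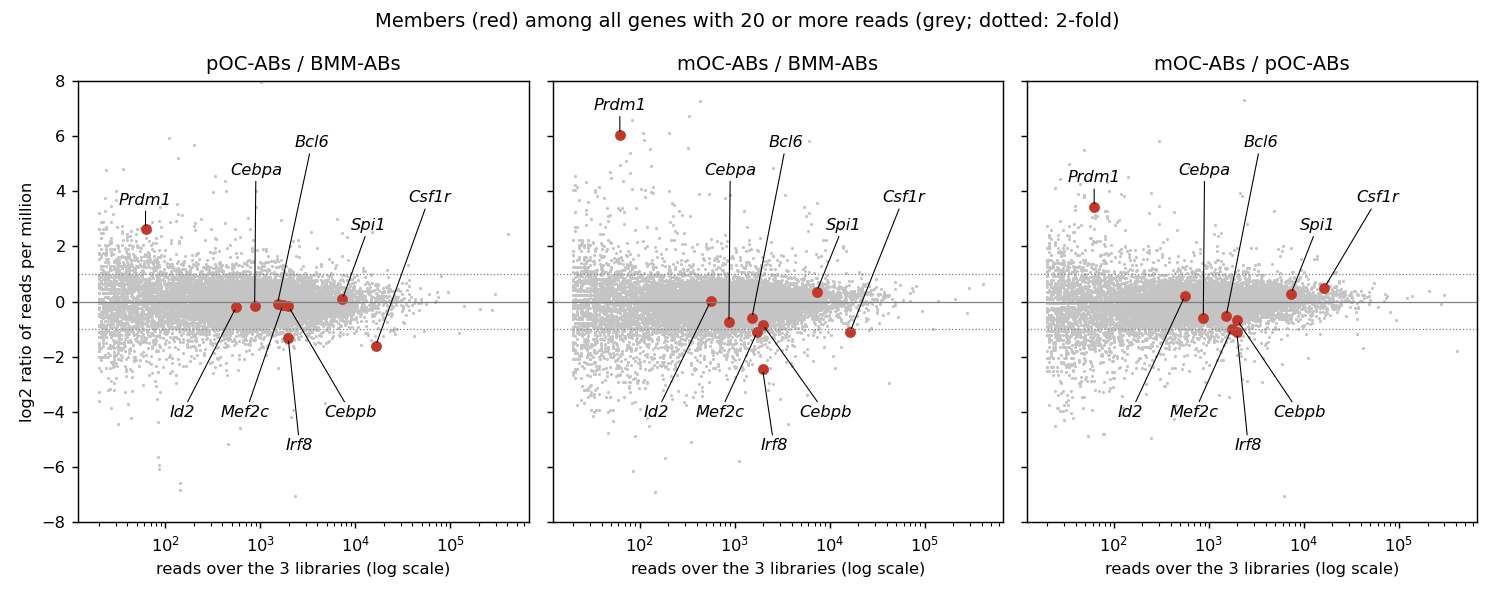
Log2 ratio of RPM (vertical axes) against the reads of the 3 libraries together (horizontal axes, log scale) for the genes with at least 20 reads (grey) and the 9 members (red) in G1, G2 and G3, with dotted lines at 2-fold. Csf1r lies at the lower edge of genes of its depth in G1, Irf8 lies low in all panels, and Prdm1 lies high among genes of few reads.

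Levels can be compared between genes only per length, for which the deposited FPKM was summed per gene. In BMM-ABs the order was Csf1r (235), Spi1 (150), Cebpb (66.0), Irf8 (54.2), Mef2c (53.7), Id2 (23.3), Bcl6 (20.2), Cebpa (16.3) and Prdm1 (0.0208). The neighbours Irf8 and Mef2c, and likewise Id2 and Bcl6, were not separated by their counting intervals. In pOC-ABs Spi1 (160) stood above Csf1r (77.4), Cebpb (58.6), Mef2c (30.0) and Irf8 (23.2), with Irf8, Bcl6 (19.3), Id2 (18.9) and Cebpa (14.7) each overlapping its neighbour. In mOC-ABs the order was Spi1 (195), Csf1r (108), Cebpb (36.8), Id2 (22.1), Mef2c (20.7), Bcl6 (13.4), Irf8 (9.79), Cebpa (9.74) and Prdm1 (2.15), with Id2 and Mef2c and also Irf8 and Cebpa overlapping. Irf8 moved from the place of Mef2c to that of Cebpa. Among protein-coding genes with listed transcripts, the level of Spi1 lay at percentile 96.9, 96.9 and 97.6 and that of Irf8 at percentile 88.2, 69.9 and 46.5.

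By reads, the leading transcript of Id2 and of Mef2c was not the same in all libraries, but by FPKM, which divides by transcript length, Id2-203 led Id2 throughout. For Id2, the 3 transcripts are all protein-coding. Id2-203 (ENSMUST00000222667) held 72.5% (66.0 to 78.3), 72.9% (65.2 to 79.7) and 48.1% (40.8 to 55.5) of its reads. Id2-201 had 59, 2 and 96 reads and Id2-202 had 1, 40 and 1, Id2-201 being low in the library where Id2-202 was high. In mOC-ABs Id2-201 and Id2-203 differed by 96 against 90 reads, with overlapping intervals of their shares. By FPKM, Id2-203 held 77.8%, 84.3% and 55.2% of the gene. By reads, Mef2c-215 led Mef2c in BMM-ABs with 211, 23 and 71 reads, Mef2c-223 in pOC-ABs with 76, 276 and 50, and Mef2c-227 in mOC-ABs with 161, 114 and 156. By FPKM, Mef2c-215 led in BMM-ABs (40.7%) and in mOC-ABs (42.1%), where Mef2c-227 held 28.0%, and Mef2c-223 led in pOC-ABs (28.5%). Mef2c-222 had 123, 34 and 0 reads, Mef2c-231 had 86, 1 and 0, and Mef2c-213 had 0, 74 and 0. Such a change of the leading transcript by reads was found in 26.7% of the 8519 genes with at least 2 listed transcripts and 100 reads, and in 2 of the 6 members that meet both limits.

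**Figure D4:**
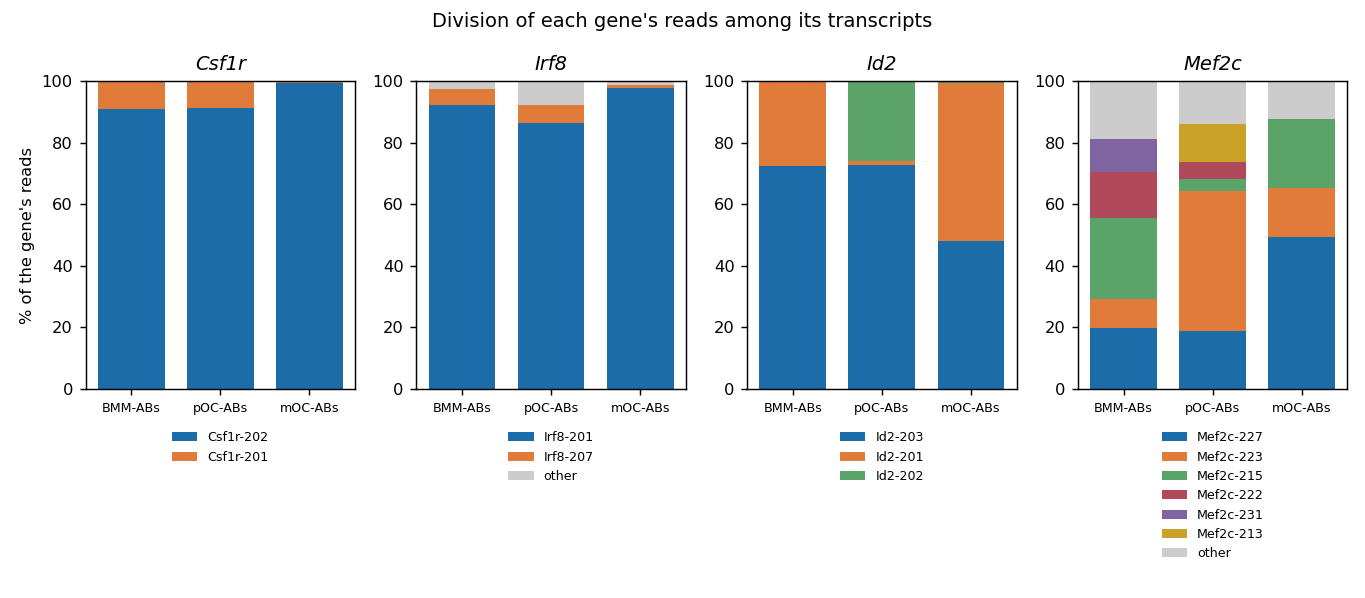
Percent of the gene's reads (vertical axes, 0 to 100) that the deposited counts assign to each transcript of Csf1r, Irf8, Id2 and Mef2c in the 3 libraries (horizontal axes), with grey for the remaining transcripts. Csf1r-201 holds 0.589% in mOC-ABs, Id2-202 holds 25.8% in pOC-ABs, and Mef2c-223 holds 45.5% in pOC-ABs.

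Transcripts with a retained intron were listed for Irf8, Bcl6 and Mef2c. For Mef2c they held 120, 36 and 6 reads, or 14.9% (12.5 to 17.5), 5.93% (4.19 to 8.12) and 1.90% (0.700 to 4.09) of the gene. For Irf8 they held 6.54% (5.27 to 8.01), 10.4% (7.72 to 13.7) and 2.42% (0.789 to 5.55), and for Bcl6 6.89% (5.07 to 9.11), 2.19% (1.10 to 3.88) and 3.57% (1.92 to 6.03). For Mef2c the share was highest in BMM-ABs, with an interval above both others. The highest values lay in BMM-ABs for Bcl6 and in pOC-ABs for Irf8. Their intervals overlapped those of mOC-ABs for Bcl6 and of BMM-ABs for Irf8. Over all protein-coding genes it was 5.80%, 4.95% and 4.39%.

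The lncRNA table listed 13 transcripts that overlap 4 of the members, and the circRNA table listed no junction of any member. The lncRNA table gives no strand, so it is not known whether such reads came from the lncRNA or from the gene. At Bcl6, 3 NONCODE transcripts outside the exons of its protein-coding transcript had 67, 21 and 21 reads together. At Mef2c, 3 such transcripts had 55, 16 and 15. Scaled to both tables, their log2 ratio in G1 was -1.57 (-2.35 to -0.85) at Bcl6 and -1.68 (-2.58 to -0.85) at Mef2c, whereas the genes themselves had -0.076 and -0.11 in G1 on the scale of the mRNA table. At Csf1r, 1 transcript without exon overlap begins before the annotated start of the gene and ends before either listed Csf1r transcript starts. It had 14, 15 and 21 reads and a value of 0.20 in G1 (-0.95 to 1.36). The Csf1r gene had -1.60 on the scale of the mRNA table and -1.80 on that of both tables.

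The remaining genes of the pathway are taken from lists by function. Of 28 other macrophage lineage factors, 25 had at least 20 reads. In G1, 1 was past 2-fold higher and 0 lower, in G2 2 were higher and 6 lower, and in G3 1 was higher and 3 lower. Past 2-fold in either direction were 10.9%, 13.1% and 10.3% of all genes in G1, G2 and G3. The medians of this list were -0.15, -0.49 and -0.27. Among those lower in G2 were Klf2 (-1.76), Egr1 (-1.43), Runx1 (-1.30), Klf4 (-1.11) and Tfeb (-1.05). Egr2 (1.46) and Gfi1 (1.45) were higher, with 57, 109 and 133 reads and 19, 16 and 44. The factors with the most reads other than Egr1, which were Stat6 (0.12), Zeb2 (-0.70) and Irf5 (0.17), were within 2-fold in G2. Egr2 (1.24) was the gene past 2-fold in G1, and in G3 Gfi1 (1.40) was higher and Egr1 (-1.50) and Klf2 (-1.28) were among those lower. Myb and Gata2 had no rows.

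Of 17 other repressors of osteoclast formation, 16 had at least 20 reads. In G1, 0 were past 2-fold higher and 3 lower, in G2 1 was higher and 4 lower, and in G3 2 were higher and 3 lower. The shares of all genes past 2-fold in either direction were 10.9%, 13.1% and 10.3%. These repressors had medians of -0.32, -0.17 and 0.030. This list and the previous list have a gene in common. Lilrb4a, an inhibitory receptor, had 2251, 843 and 419 reads, with log2 ratios of -1.12 in G1 and -2.19 in G2, and Pirb, of the same kind, had 138, 72 and 24 and -2.28 in G2. Nrros had 382, 97 and 687 reads, lower in G1 (-1.68) and higher in G2 (1.09). Among relatives of Id2, Id3 had 57, 20 and 69 reads and Id1 50, 22 and 19, with log2 ratios of -1.21 and -0.88 in G1. In G2 Id1 was lower (-1.16), and in G3 Nrros (2.76) and Id3 (1.73) were higher, and Pirb (-1.65) and Lilrb4a (-1.07) were among those lower. Rbpj (-0.37), Zbtb7a (0.47) and Foxp1 (0.20) were within 2-fold in G2.

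Of 23 genes for CSF1R ligands, related receptors and signalling, 22 had at least 20 reads. None was past 2-fold higher in any comparison, and 3, 5 and 1 were lower in G1, G2 and G3. Of all genes, 4.87%, 4.16% and 3.50% were past 2-fold higher and 6.07%, 8.99% and 6.83% lower. The medians of this list were -0.43, -0.35 and -0.011. Csf3r, the receptor of G-CSF, had 370, 48 and 33 reads and log2 ratios of -2.65 in G1 and -3.25 in G2. Csf2ra and Csf2rb, the chains of the GM-CSF receptor, had -0.97 and -1.12 in G1 and -1.12 and -0.90 in G2. Fgr, a Src-family kinase, was lower in G2 (-1.83), and Csf1, with 13, 4 and 5 reads, had -1.40 in G1 and -1.14 in G2, with intervals (-3.47 to 0.30 and -2.98 to 0.44) that held 0. Fgr (-1.36) was the gene that was lower in G3. Tyrobp (-0.69), Akt1 (0.12), Ptpn6 (0.058) and Inpp5d (-0.040) were within 2-fold in G2.

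Of 24 partners and corepressors of the members, 22 had at least 20 reads. In G1, 1 was higher and 0 lower, in G2 0 were higher and 1 lower, and in G3 0 were higher and 2 lower, with medians of -0.16, -0.21 and -0.054, beside 10.9%, 13.1% and 10.3% of all genes past 2-fold. Jun, a subunit of AP-1, had 3074, 2486 and 1112 reads, and its log2 ratios were -1.23 in G2 and -1.22 in G3. Mef2b, with 7, 12 and 6 reads, was higher in G1 (1.08, -0.38 to 2.66) and lower in G3 (-1.06, -2.76 to 0.46), with intervals that held 0. Ncor1 (-0.20) and Junb (-0.43) were within 2-fold in G2.

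Likeness to each member was measured as the distance between the G1 and G2 log2 ratios of a gene and those of the member, over 3 libraries, among 9873 protein-coding genes with at least 100 reads. The nearest gene to Csf1r was Tmem104, with 316, 85 and 125 reads at a distance of 0.00817. Those nearest to Irf8 were Fcgr2b (272, 83 and 42 reads, distance 0.0875) and Lrrc8c (0.131), farther than for any other member. For Spi1 they were Cpsf6 and Kti12, for Cebpa Fam217b and Metap1d, and for Cebpb Mef2a and Plk3. For Bcl6 they were Rmi1 and Alg8, for Id2 Brat1 and Elac2, and for Mef2c Zgrf1 and Usp12. Mef2a, nearest to Cebpb, had 1183, 850 and 557 reads. Prdm1 has too few reads for this measure.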

How the data were processed

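RNA of ABs was sequenced in 3 libraries, 1 per condition. The submitters' processing notes name FastQC, HISAT2, StringTie and GRCm38, without versions or roles. The counting step is not given in the sources used here. The authors deposited read counts and FPKM for each mRNA and lncRNA transcript, and counts of junction reads with SRPBM, a signal scaled per library, for each circRNA. The deposited FPKM of mRNAs was used for summed levels, for ratios of these as an alternative and for transcript shares, and SRPBM was not used. The methods describe poly-A selected paired-end libraries. GENCODE M21 gave a gene for 56422 of the listed mRNA transcripts and none for 229.

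Counts were summed per gene and divided by the mRNA table's total. Ratios took no pseudocount. Past 2-fold meant a ratio above 2 or below 0.5 with at least 20 reads over the 3 libraries. Ratios and shares have Clopper-Pearson intervals and levels in RPM exact Poisson intervals, without molecular identifiers behind the reads. Intervals of summed FPKM are the Poisson limits of the gene's total reads, rescaled. They are approximate, and can be too narrow, for genes with more than 1 listed transcript. In each library 3 reads correspond to 0.330, 0.406 and 0.389 RPM. The interval script was tested on simulated counts. Python 3.11.15, pandas 2.3.3, NumPy 2.4.6 and SciPy 1.17.1 were used. Replicate counting models such as quasi-likelihood tests could not be fitted with 1 library per condition.

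The members and the lists were chosen with earlier results of these data known. Named were all members, their transcripts with at least 10% of the gene's reads in a library (others where a sum or share turns on them, chosen after their values were seen), the 4 genes with the most reads of each list and any listed gene past 2-fold, and the 2 genes most like each member with at least 100 reads. Some genes that this rule names are counted in the lists but not reported here. Alternatives were other scalings (both tables together, median-of-ratios size factors, the upper quartile), summed FPKM with or without a pseudocount of 1, transcript shares by FPKM, protein-coding transcripts alone, no limit on reads and a fold limit of 1.5.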

Additional observations from a re-analysis of the deposited data

Results flagged for a closer look

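2 lncRNA transcripts at the Mef2c locus stood above their level in BMM-ABs, in a table that the comparisons of the members do not use. The rule took only rises over BMM-ABs in G1 or G2 whose whole interval lay above 0, among the 13 transcripts that overlap members. Other transcripts with a ratio above 0 in these comparisons had intervals that held 0. The share of all lncRNA transcripts that meet this rule was not computed. NONMMUT018494.2 (chromosome 13, 83664245 to 83666339) had 9, 175 and 14 reads in the libraries of the 3 stages, 175 being in pOC-ABs, and its G1 log2 ratio was 4.38 (95% exact interval 3.43 to 5.54, counting error only). Its whole span of 2095 bases lies in exons of protein-coding Mef2c transcripts and in 0 bases of coding sequence. NONMMUT018487.2 (83524949 to 83526808) had 8, 19 and 5 reads, and its G1 log2 ratio was 1.35 (0.092 to 2.75), with 7.10% of its span in such exons. Neither difference has a replicate check.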

How the results depend on the processing

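Limits are 1 library per condition, an estimated division of reads among overlapping transcripts, and few reads for Prdm1. No paired analysis was possible because each condition has 1 library and no replicate number. At a fold limit of 1.5 the members past the limit numbered 7 in G2 and 5 in G3, and with protein-coding transcripts alone 1 in G3, Prdm1, since Irf8 and Mef2c then lay at -1.00 and -0.94. The share of all genes past the limit was not computed for either setting, so these counts show nothing particular to the members. Under the other alternatives the counts were within 1.5 times the reported ones. Mef2c in G3, reported at -1.00, lay inside 2-fold under 6 alternatives, at -0.90 with both tables, -0.96 with size factors, -0.98 with the upper quartile, -0.54 with FPKM and -0.52 with FPKM and the pseudocount. By FPKM, Mef2c in G1 was -0.84, and -0.82 with the pseudocount, and 14 of the 27 shares of leading transcripts were counted as outside their counting intervals. Among the 14 was Cebpb-201 in pOC-ABs, which was 100% by reads and by FPKM and so did not move. The shares of Cebpa and Cebpb, with 1 listed transcript each, could not move. Prdm1 moved with that pseudocount from 2.62 to 0.14 in G1, from 6.05 to 1.63 in G2 and from 3.42 to 1.48 in G3. The G2 and G3 values then lay outside their counting intervals. Median-of-ratios size factors left all 27 log2 ratios within their counting intervals, and scaling to both tables left 17. That scaling moved the median of all genes from -0.021 to -0.22 in G1 and from -0.054 to -0.15 in G2. The share of higher genes among those past 2-fold then moved from 44.5% to 27.0% in G1. Adding the lncRNA reads at the locus, an alternative chosen after seeing the data, moved Mef2c in G1 from -0.11 to 0.16. It moved Mef2c in G3 from -1.00 to -1.31, farther past 2-fold. No ratio past 2-fold changed its sign under any alternative.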
